A study of Rattus norvegicus with 3 samples.

Results

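Mitochondrial ribosomal protein genes were followed in rat tibialis anterior muscle that had received a Plin5 plasmid, a Plin2 plasmid or an empty vector. Members were all genes whose array annotation symbol is Mrpl (large subunit) or Mrps (small subunit) followed by a number, each represented by its brightest probe set with a single symbol. There were 68 of them among 14506 genes, 41 Mrpl and 27 Mrps, and all 68 lay above the level under which genes were left out as dim (5.34 on the log2 scale), as did 10879 genes in all. Total RNA was measured on whole-transcript arrays with 1 array per group. In the Plin5 group a pcDNA3.1 plasmid with the CMV promoter drove Plin5 (also called OXPAT), in the Plin2 group a pENTR plasmid with the same promoter drove Plin2 (ADRP), and the control group received empty pcDNA3.1. The Plin2 array therefore differs from the other arrays in plasmid backbone as well as insert. All 3 groups were male Wistar rats aged 11 weeks that were fed for 3 weeks on chow in which fat supplied 45% of the energy, were injected with 150 µg of plasmid and electroporated after 2 of those weeks, and were killed 8 days later. Each array held equal amounts of RNA from 6 rats, so no spread between animals could be measured, and every difference below is a description of a pair of arrays with no test.

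Mitochondria carry their own ribosome, which translates the few messages of mitochondrial DNA, all for core parts of the respiratory complexes and of ATP synthase. Its RNAs come from mitochondrial DNA, but all of its proteins are encoded in the nucleus, made in the cytosol and imported. The large subunit forms peptide bonds and the small subunit reads the message. Many of the proteins have counterparts in bacteria, and the others are found only in mitochondria. Muscle, which is rich in mitochondria, depends on this ribosome to keep its respiratory chain supplied.

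Each introduced gene was highest on its own array. Plin5 stood at 8.30 on the Plin5 array, 6.79 on the Plin2 array and 7.52 on the empty vector array, and Plin2 at 10.08, 10.70 and 9.99 on the same arrays. The tissue label fitted its markers: the 15 measured muscle fibre markers had a median level of 13.50 on the Plin5 array, 13.24 on the Plin2 array and 13.50 on the empty vector array. Other cell types moved with the groups. Of all genes past the dim filter, 38.3% lay above and 31.7% below the empty vector array on the Plin2 array. The same shares for the Plin5 array were 25.8% and 34.0%. All 15 macrophage markers were higher on the Plin2 array than on the empty vector array, by 0.43 to 1.96 log2 units (median 1.06). On the Plin5 array 12 of them were lower than on the empty vector array, with a median of −0.47. All 15 markers of T and natural killer cells were higher on the Plin2 array as well (median 1.04). On the Plin5 array 10 of these 15 were lower than the control (median −0.29). The other 5 were higher: Gzma (1.25), Gzmb (0.79), Cd2 (0.26), Nkg7 (0.24) and Prf1 (0.18). All 15 muscle fibre markers were lower on the Plin2 array, by a median of −0.27, from Acta1 (−0.02) to Myh7 (−1.75). After Myh7 came Myh2 (−0.98), Tnnt1 (−0.78) and Pvalb (−0.60), whereas Ckm (−0.07) and Myh1 (−0.12) moved little. On the Plin5 array 12 of the 15 were higher than the control (median 0.02). Past 1.2-fold were 2 of them, Myh7 (0.44) and Tnnt1 (0.38), where 1.52% of all genes were higher by that amount. Fibroblast and tendon genes had medians of −0.22 on the Plin5 array and 0.14 on the Plin2 array against the control, but the list was not uniform. Of its 11 genes 4, Chad (−1.94 and −0.23), Tnmd (−1.39 and −0.41), Fmod (−1.17 and −0.48) and Kera (−1.03 and −0.75), were below the control on both arrays. The other 7 were above it on the Plin2 array: Lum (0.43), Scx (0.38), Pdgfra (0.25), Col1a2 (0.22), Col1a1 (0.14), Col3a1 (0.14) and Dcn (0.06). Satellite cell genes had medians of −0.01 on the Plin5 array and 0.13 on the Plin2 array. Past 1.5-fold above the control on the Plin2 array were 2 of the 5, Myf5 (1.11) and Cdh15 (0.88), beside 8.84% of all genes. Endothelial genes had medians of 0.00 and 0.06, and adipocyte genes 0.00 and 0.00. The single genes of these lists were chosen for naming after their values were seen. In whole muscle, fewer muscle fibres in the sample, another mix of fibre types and less RNA per fibre cannot be told apart. The part of this shift in the results below was not tested.

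Across the set, mitochondrial ribosomal protein genes were lower on the Plin2 array and close to the control on the Plin5 array. On the Plin2 array 59 of 68 genes lay below the empty vector array, 1 lay above it and 8 were exactly equal, with a median difference of −0.33 log2 units. For all genes past the dim filter the median was 0.00, and 31.7% lay below the empty vector array, against 86.8% of the members. Of the members, 39 were lower by at least 1.2-fold (15.5% of all genes) and 10 by at least 1.5-fold (5.80% of all genes). None was higher by 1.2-fold (19.4% of all genes) or by 1.5-fold (8.84% of all genes). On the Plin5 array 41 genes were above the empty vector array, 14 below it and 13 equal, with a median of 0.04, again beside 0.00 for all genes, of which 25.8% lay above and 34.0% below. By its brightest probe set no member reached 1.2-fold against the empty vector in either direction on the Plin5 array, where 1.52% of all genes were higher and 5.71% lower by that amount, and 0.221% and 1.42% by 1.5-fold. The largest differences there were 0.22 for Mrpl13 and −0.16 for Mrpl55. The Plin2 array held the lowest of the 3 values for 58 of the 68 members, against 29.7% of all genes.

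**Figure D1:**
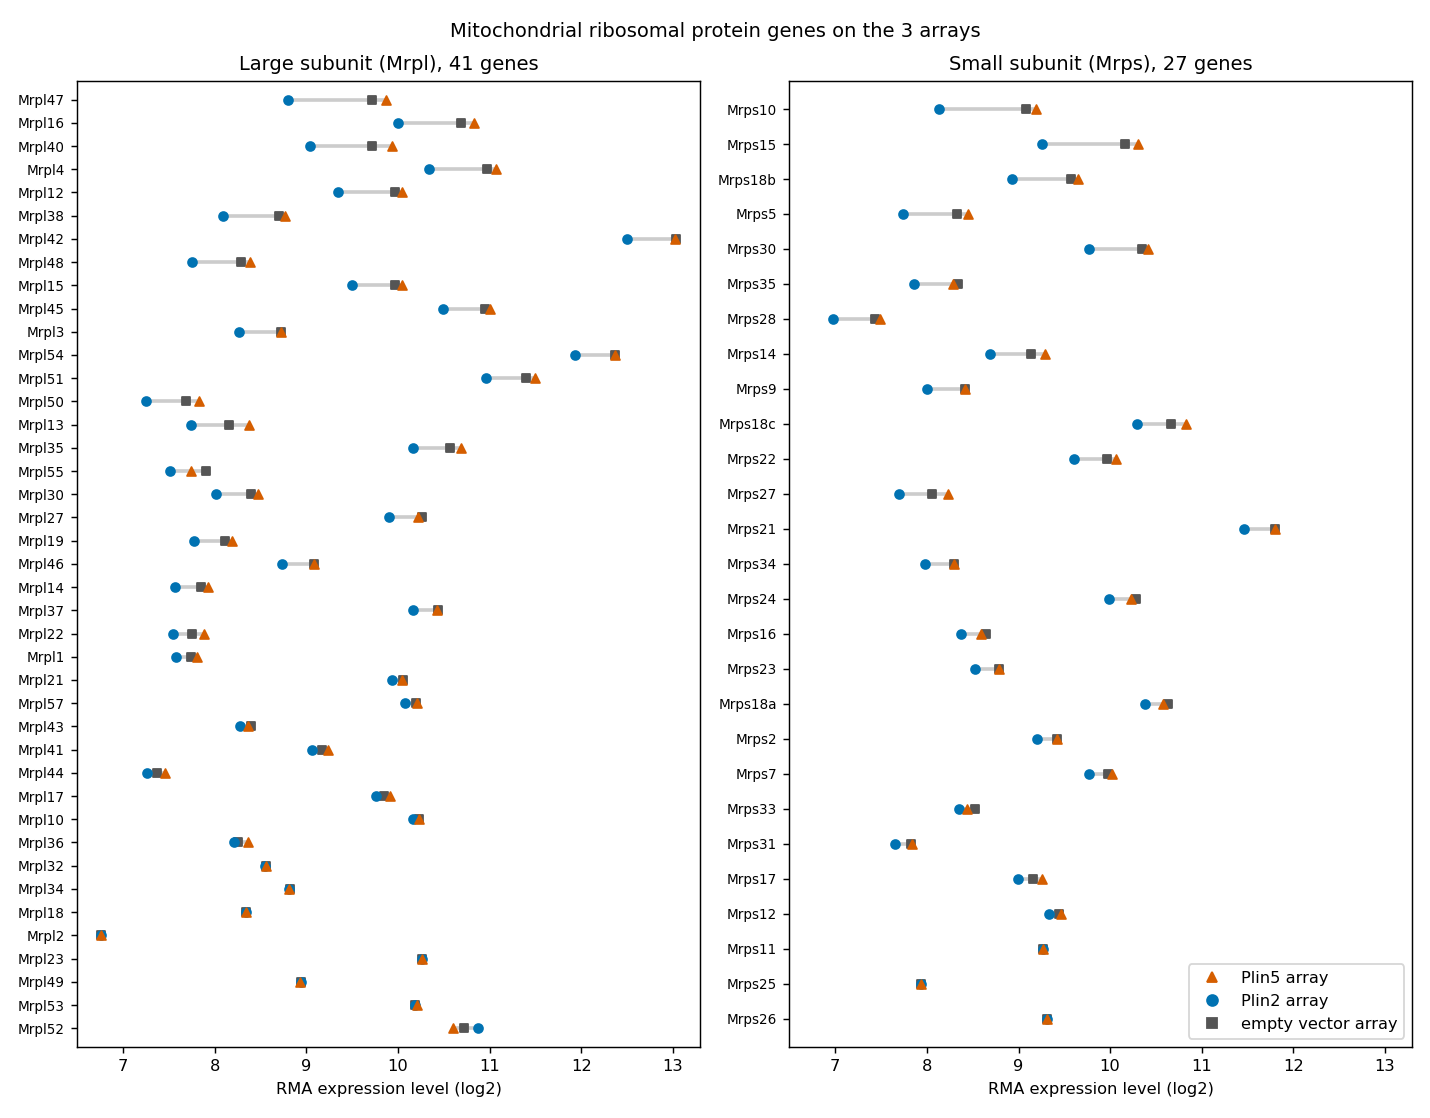
RMA expression level (log2) of the 41 Mrpl genes (left) and the 27 Mrps genes (right) on the Plin5 array (triangles), the Plin2 array (circles) and the empty vector array (squares), 1 array per group. Genes run from the lowest Plin2 minus empty vector difference at the top to the highest at the bottom; the Plin2 circle lies left of both other symbols for 58 of 68 genes, and Mrpl52 at the bottom of the left panel has its circle on the right.

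In the large subunit, proteins beside the peptidyl transferase centre, where peptide bonds form, were mostly lower on the Plin2 array. Mrpl16, which sits beside the incoming transfer RNA, stood at 10.83 on the Plin5 array, 10.00 on the Plin2 array and 10.69 on the empty vector array. Its Plin2 value was the low one, 1.60-fold under the empty vector (−0.68), and its Plin5 value was 0.14 above it. Mrpl3, mutated in people with an inherited heart muscle disease, stood at 8.73, 8.27 and 8.73 on these arrays in the same order (Plin2 minus empty vector −0.46). Mrpl27, whose bacterial counterpart reaches into the same centre, stood at 10.22, 9.90 and 10.26 (−0.36). Mrpl2 in this region had exactly the same value, 6.76, on all 3 arrays.

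The stalk recruits elongation factors to the ribosome, and its measured proteins differed from one another. Mrpl12, the flexible stalk protein, stood at 10.04 on the Plin5 array, 9.34 on the Plin2 array and 9.97 on the empty vector array, a Plin2 difference of −0.63 (1.55-fold lower). Mrpl10, which anchors Mrpl12, differed by only −0.07, with 10.23 on the Plin5 array, 10.16 on the Plin2 array and 10.23 on the empty vector array. Around the mouth of the tunnel through which the new protein leaves, Mrpl47 was the lowest large subunit gene on the Plin2 array relative to the control. It stood at 9.87 on the Plin5 array, 8.80 on the Plin2 array and 9.72 on the empty vector array, 1.89-fold lower in the Plin2 group (−0.91). Mrpl45, which ties the ribosome to the inner membrane, stood at 11.00, 10.49 and 10.95 (−0.46). The other tunnel exit proteins moved less: Mrpl22 by −0.20, Mrpl17 by −0.09 and Mrpl23 by 0.00, the last with 10.26 on every array. This region thus held both a gene with one of the largest differences of the family and one with exactly equal values on all 3 arrays. Such equal values were found for 24.6% of all genes past the dim filter.

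The central protuberance, which in mammals is built largely of mitochondria-specific proteins, was low on the Plin2 array. Past 1.2-fold below the control were 5 of its 6 measured genes, beside 15.5% of all genes. Like shares were found in the small subunit head (4 of 5), peptidyl transferase centre (3 of 4) and small subunit platform (3 of 4). Shares were lower in the small subunit body (2 of 4), tunnel exit (2 of 5) and stalk (1 of 2). Mrpl40 stood at 9.93 on the Plin5 array, 9.04 on the Plin2 array and 9.72 on the empty vector array, the Plin2 value being 1.60-fold lower (−0.68) and the Plin5 value 0.21 higher. Mrpl38 stood at 8.76, 8.09 and 8.70 (−0.62 for Plin2), and Mrpl48 at 8.39, 7.75 and 8.28 (−0.53). Mrpl55 (−0.39) and Mrpl46 (−0.34) followed, and Mrpl18 had 8.34 on all 3 arrays. Mrpl55 was the member furthest below the control on the Plin5 array, with 7.74 on the Plin5 array, 7.51 on the Plin2 array and 7.90 on the empty vector array.

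Among the remaining large subunit genes, Mrpl4, which lines the exit tunnel, stood at 11.07 on the Plin5 array, 10.33 on the Plin2 array and 10.98 on the empty vector array (−0.64 for Plin2, 1.56-fold lower). Mrpl42 (−0.54 by its brightest probe set), Mrpl15 (−0.47), Mrpl54 (−0.44), Mrpl51 (−0.43), Mrpl50 (−0.43), Mrpl13 (−0.41) and Mrpl35 (−0.41) followed. Mrpl30 (−0.38), Mrpl19 (−0.34), Mrpl14 (−0.28) and Mrpl37 (−0.27) also passed 1.2-fold. Smaller Plin2 differences, from −0.17 to −0.01, were found for Mrpl1, Mrpl21, Mrpl57, Mrpl43, Mrpl41, Mrpl44, Mrpl36, Mrpl32 and Mrpl34. Mrpl44, another gene mutated in people with heart muscle disease, was among these (−0.11). Mrpl49 and Mrpl53 were equal on the Plin2 and empty vector arrays. Mrpl52 was the one member above the control on the Plin2 array, with 10.60 on the Plin5 array, 10.88 on the Plin2 array and 10.72 on the empty vector array (0.15). Mrpl13, part of the conserved core, was the member furthest above the control on the Plin5 array, with 8.37 on the Plin5 array, 7.74 on the Plin2 array and 8.15 on the empty vector array.

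In the small subunit, head proteins included the family's largest difference. Mrps10 stood at 9.19 on the Plin5 array, 8.13 on the Plin2 array and 9.08 on the empty vector array, 1.93-fold lower in the Plin2 group (−0.95). The other head proteins were lower by less on the Plin2 array: Mrps14 by −0.44, Mrps9 by −0.41, Mrps24 by −0.29 and Mrps7 by −0.20. Mrps15 of the platform, where the message leaves, stood at 10.31, 9.25 and 10.16, 1.88-fold lower in the Plin2 group (−0.91). Mrps18c stood at 10.83 on the Plin5 array, 10.30 on the Plin2 array and 10.66 on the empty vector array (−0.37 for Plin2), and Mrps21 differed by −0.34. These platform genes lay below the control, whereas Mrps11 of the same region was equal on all 3 arrays by its brightest probe set (9.27). In the body, Mrps5 stood at 8.45, 7.74 and 8.33 (−0.59, 1.51-fold lower in the Plin2 group), Mrps16 differed by −0.27, Mrps17 by −0.16 and Mrps12, the protein at the decoding site, by −0.10.

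Of the Mrps proteins counted as mitochondria-specific, Mrps18b had the largest Plin2 difference, with 9.65 on the Plin5 array, 8.93 on the Plin2 array and 9.57 on the empty vector array (−0.64, 1.55-fold lower). Mrps18a, Mrps18b and Mrps18c are all related to one bacterial protein, and their Plin2 differences were −0.25, −0.64 and −0.37. Mrps35 (−0.48), Mrps22 (−0.36), Mrps27 (−0.35), Mrps34 (−0.32) and Mrps23 (−0.26) were lower as well, Mrps33 (−0.18) and Mrps31 (−0.17) by less, and Mrps25 (7.94) and Mrps26 (9.31) were equal on all 3 arrays. Mrps28, which has a bacterial counterpart, stood at −0.46 and Mrps2 at −0.22. Mrps30 stood at 10.41 on the Plin5 array, 9.77 on the Plin2 array and 10.35 on the empty vector array (−0.58), just short of the 1.5-fold limit that Mrps5 (−0.59) just passed.

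Large and small subunit genes had close medians in all 3 comparisons. For Plin5 against empty vector the medians were 0.06 for the 41 large subunit genes and 0.02 for the 27 small subunit genes, a difference of 0.04. For Plin2 against empty vector they were −0.34 for large and −0.32 for small subunit genes, a difference of −0.02. Past 1.2-fold below the control were 23 of 41 large and 16 of 27 small subunit genes (15.5% of all genes). Past 1.5-fold were 6 large and 4 small subunit genes (5.80% of all genes). For Plin5 against Plin2 the medians were 0.33 for large and 0.32 for small subunit genes. Despite their names, Mrps30 and Mrps18a sit in the large subunit of the mammalian mitochondrial ribosome. Counting them there left 43 large and 25 small subunit genes with the same medians to 2 decimals. Genes with a bacterial counterpart (39) and genes counted as mitochondria-specific (29) had medians of 0.07 and 0.01 for Plin5 against empty vector, a difference of 0.06, and of −0.34 and −0.32 for Plin2 against empty vector, a difference of −0.02. The 29 include Mrps18a and Mrps18b, and counting both among the first (41 and 27 genes) gave the same medians.

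**Figure D2:**
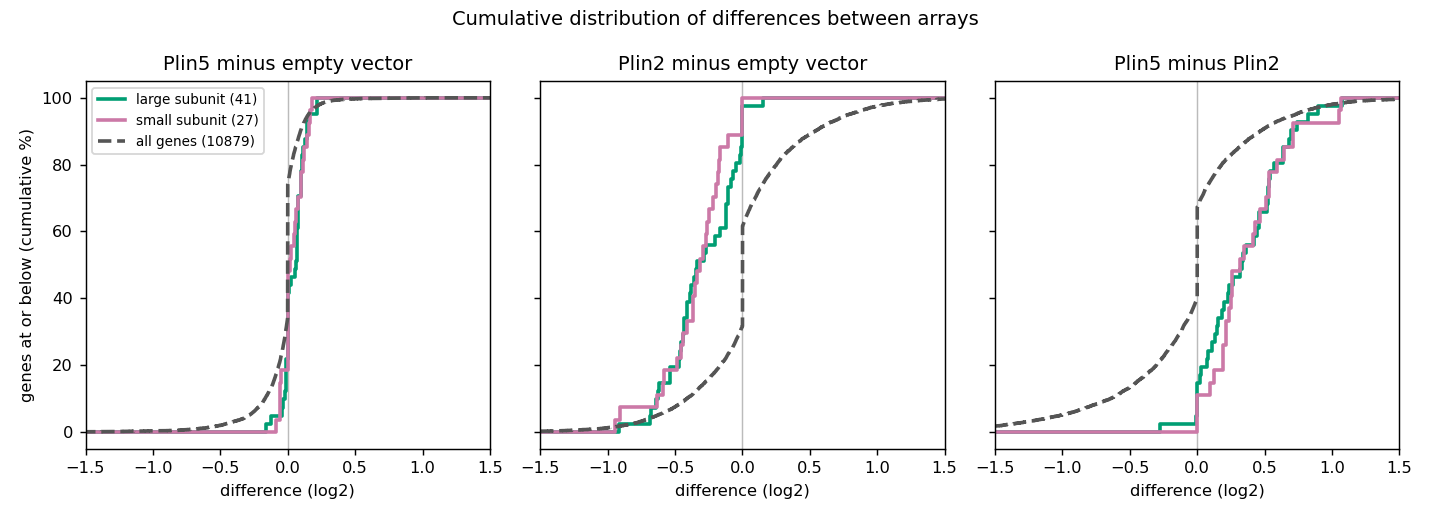
Cumulative percentage of genes (y axis) at or below each log2 difference (x axis, cropped at both ends) for Plin5 minus empty vector, Plin2 minus empty vector and Plin5 minus Plin2, with large subunit genes (41), small subunit genes (27) and all genes past the dim filter (10879, dashed). The subunit curves run together in each panel, with medians of −0.34 and −0.32 for Plin2 minus empty vector, where they lie left of the dashed curve.

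In the direct comparison of Plin5 with Plin2, 59 of 68 members were higher on the Plin5 array, 2 were lower and 7 equal, with a median of 0.33 (1.25-fold) beside 0.00 for all genes, of which 32.7% lay above 0 and 40.2% below. By at least 1.2-fold 36 were higher (16.6% of all genes) and 1, Mrpl52 (−0.28), was lower (22.0% of all genes). By at least 1.5-fold 14 were higher (7.19% of all genes) and 0 lower (11.3% of all genes). The top values were 1.07 for Mrpl47 (2.10-fold), 1.07 for Mrps10 (2.09-fold) and 1.05 for Mrps15 (2.07-fold). Besides the 10 genes past 1.5-fold for Plin2 against empty vector, Mrps30 (0.65), Mrpl48 (0.64), Mrpl13 (0.63) and Mrps14 (0.59) were past it here. This comparison shares its Plin2 array with the one before and adds no separate evidence of the low Plin2 values.

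For 4 members there was a further probe set. Those of Mrpl40 (−0.72 against −0.68 for the brightest) and Mrpl41 (−0.11 for both) gave like Plin2 differences. Those of Mrpl42 did not: the dimmer one stood at 10.00 on the Plin5 array, 8.80 on the Plin2 array and 9.73 on the empty vector array, −0.93 for Plin2 against −0.54 for the brighter, and 0.27 for Plin5, past 1.2-fold, against −0.01. For Mrps11 the dimmer probe set stood at 9.01, 8.59 and 8.98, a Plin2 difference of −0.39, while the brighter was equal on all arrays. Values of Mrpl42 and Mrps11 are therefore uncertain.

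Promoter sequences in RefSeq (build GRCr8, 250 bases before to 50 after the annotated start) could be matched for 54 of the 68 members. They were searched on both strands for core motifs of regulators known to act on mitochondrial genes: CGCATGCG for NRF1, CCGGAAG for the ETS family that includes GABP, AAGATGG for YY1 and AAGGTCA for the estrogen-related receptors. The ETS letters were in 18 member promoters (33.3%), against 9.22% of all 27457 RefSeq promoters and 16.4% of those of genes past the dim filter. The YY1 letters were in 15 (27.8%), against 7.30% and 8.07%, and the NRF1 letters in 6 (11.1%), against 1.81% and 3.33%. The receptor letters were in 3 (5.56%), against 4.37% and 2.90%. Of 16 YY1 matches, 11 began at or after the annotated start. No match to one motif overlapped a match to another in the member promoters. A match is only a run of letters and was not tested as a binding site.

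Promoters are shown for the member with the lowest Plin2 difference (Mrps10), for the one above the control on the Plin2 array (Mrpl52), for one with matches to 3 motifs (Mrps18b), for one with a pair of NRF1 matches (Mrpl17) and for one that shares its promoter with another member (Mrpl46). Each is written along the gene's own strand, and capitals mark the matched letters on either strand.
Mrps10, chr9:21122404-21122703, minus strand: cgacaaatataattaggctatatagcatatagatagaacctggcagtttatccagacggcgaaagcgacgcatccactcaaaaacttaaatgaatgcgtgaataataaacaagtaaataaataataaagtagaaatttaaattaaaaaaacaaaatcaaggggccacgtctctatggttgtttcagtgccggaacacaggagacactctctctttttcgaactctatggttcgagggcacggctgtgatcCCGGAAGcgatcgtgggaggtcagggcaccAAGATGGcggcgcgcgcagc
Mrps18b, chr20:2842756-2843055, plus strand: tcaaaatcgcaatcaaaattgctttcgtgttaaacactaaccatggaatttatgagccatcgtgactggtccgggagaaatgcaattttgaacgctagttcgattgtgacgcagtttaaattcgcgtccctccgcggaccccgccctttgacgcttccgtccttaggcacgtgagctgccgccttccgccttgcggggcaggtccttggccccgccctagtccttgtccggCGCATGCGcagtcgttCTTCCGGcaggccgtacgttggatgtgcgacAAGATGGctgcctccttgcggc
Mrpl17, chr1:169575650-169575949, minus strand: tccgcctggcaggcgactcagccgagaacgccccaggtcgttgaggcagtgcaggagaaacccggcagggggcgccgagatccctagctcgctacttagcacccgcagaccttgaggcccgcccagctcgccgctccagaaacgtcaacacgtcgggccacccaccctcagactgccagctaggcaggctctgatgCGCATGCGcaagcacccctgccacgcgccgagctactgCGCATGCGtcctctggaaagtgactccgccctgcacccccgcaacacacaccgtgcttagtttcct
Mrpl46, chr1:142116981-142117280, minus strand: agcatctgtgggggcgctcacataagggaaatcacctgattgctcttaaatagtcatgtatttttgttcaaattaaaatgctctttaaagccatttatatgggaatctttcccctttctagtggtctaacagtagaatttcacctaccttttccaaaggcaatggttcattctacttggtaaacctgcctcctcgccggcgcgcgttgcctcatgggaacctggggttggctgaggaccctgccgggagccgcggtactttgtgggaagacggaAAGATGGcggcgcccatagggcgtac
Mrpl52, chr15:31852686-31852985, plus strand: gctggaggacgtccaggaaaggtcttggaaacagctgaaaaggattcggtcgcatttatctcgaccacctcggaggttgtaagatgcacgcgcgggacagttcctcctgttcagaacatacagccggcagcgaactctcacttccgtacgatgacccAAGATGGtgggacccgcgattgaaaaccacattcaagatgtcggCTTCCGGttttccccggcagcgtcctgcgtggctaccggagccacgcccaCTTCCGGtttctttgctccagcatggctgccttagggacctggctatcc
Mrps10 carried an ETS match at its start and a YY1 match after it, and its Plin2 difference was −0.95. Mrps18b carried NRF1, ETS and YY1 matches (−0.64). Mrpl17 carried 2 NRF1 matches and differed by only −0.09. Mrpl52, at 0.15, carried 2 ETS matches and 1 YY1 match, so the same letters stood in promoters of genes at both ends of the range.

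Many members start close to a gene that is read the opposite way. Of the 54 members, 18 (33.3%) had such a diverging start within 1000 bases, against 10.3% of all RefSeq promoters and 14.9% of those of genes past the dim filter. Mrpl46 and Mrps11 are each other's neighbour, with 233 bases between their starts, and their promoter windows share 267 bases. Their Plin2 differences were −0.34 for Mrpl46 and 0.00 for Mrps11 by its brightest probe set, or −0.39 by the dimmer one. Mrpl47 lies 243 bases from Ndufb5, a complex I subunit, and both were lower on the Plin2 array (−0.91 and −0.50). Mrps27 lies 90 bases from Ptcd2, which takes part in mitochondrial RNA processing, and their Plin2 differences were −0.35 and −0.25. The other measured pairs were mixed. Mrpl18 and Tcp1 both had 0.00, Mrps18c (−0.37) lies beside Helq (−0.09), and Mrpl2 (0.00) beside Klc4 (−0.33). Mrpl27 (−0.36) lies beside Eme1 (0.00), and Mrpl49 (0.00) beside Fau (0.08). Some neighbours lay on the other side of the control. Mrps7 (−0.20) lies beside Gga3 (0.02), and Mrpl32 (−0.02) beside Psma2 (0.03). Mrpl30 (−0.38) lies 193 bases from Mitd1, which acts in the final separation of dividing cells and was higher on the Plin2 array (0.77). Mrpl40 (−0.68) lies 185 bases from the histone chaperone gene Hira (0.13), and Mrps18b (−0.64) lies 587 bases from Ppp1r10, a regulator of a nuclear phosphatase (0.14).

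**Figure D3:**
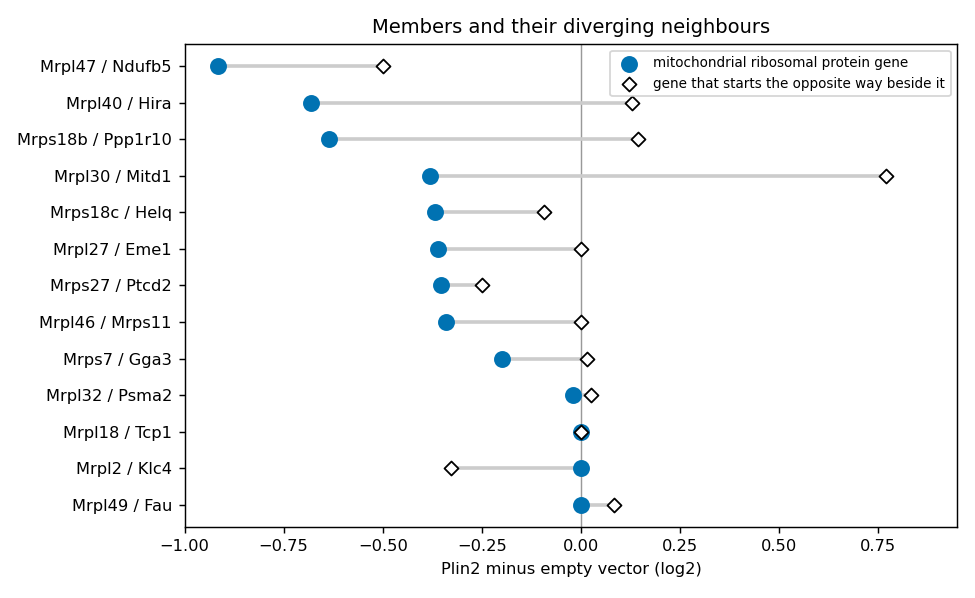
Plin2 minus empty vector difference (log2, x axis) of members (filled circles) and of the gene that starts within 1000 bases of them in the opposite direction (open diamonds), 1 pair per row, for pairs with both genes measured on the arrays. The Mrpl47 and Ndufb5 symbols both lie below 0 (−0.91 and −0.50), whereas Mrpl30 and Mitd1 lie on opposite sides of it (−0.38 and 0.77).

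The rest of the mitochondrial protein synthesis machinery was examined beside the Mrpl and Mrps genes. The shares of all genes below the control on the Plin2 array, against which each group's counts stand, were 15.5% past 1.2-fold and 5.80% past 1.5-fold. Of 5 mitochondrial ribosomal proteins with other symbols, 3 were lower by at least 1.2-fold on the Plin2 array (median −0.27): Chchd1 (−0.48), Ptcd3 (−0.37) and Gadd45gip1 (−0.27). Dap3, a GTP-binding protein of the small subunit, differed by −0.04, and Aurkaip1 was equal on all arrays. On the Plin5 array the same genes lay between 0.00 and 0.13 (median 0.06).

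The list of translation factors also held Lrpprc and Slirp, which bind and stabilise mitochondrial messages. It had the lowest median of these groups, −0.55 on the Plin2 array (the value of Lrpprc), and of 11 genes 9 passed 1.2-fold and 3 passed 1.5-fold below the control. Without Lrpprc and Slirp, left out after the values were seen, the median was −0.47, and 7 of 9 genes passed 1.2-fold and 3 passed 1.5-fold. Gfm2, which recycles ribosomes, stood at 8.90 on the Plin5 array, 7.89 on the Plin2 array and 8.78 on the empty vector array (−0.89). Guf1 (−0.78), an elongation factor, and Mtif2 (−0.73), the initiation factor that brings in the first transfer RNA, followed, and Mtfmt was equal on all 3 arrays. Their median on the Plin5 array was 0.05, with Mtif2 highest at 0.26.

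Genes for ribosome assembly and ribosomal RNA modification had a Plin2 median of −0.12, and 7 of 21 were past 1.2-fold below the control, among them Trub2 (−0.63), a pseudouridine synthase, and the large subunit assembly factor Malsu1 (−0.52). Mpv17l2 was above the control (0.12). Mitochondrial transfer RNA synthetases had a Plin2 median of −0.29, and 6 of 11 were past 1.2-fold below the control, led by Fars2 (−0.67) and Yars2 (−0.50). Genes that transcribe and copy mitochondrial DNA stood at a median of −0.23, and 5 of 10 were past the same limit. The lowest was the transcription factor Tfb2m, with 9.75 on the Plin5 array, 8.65 on the Plin2 array and 9.41 on the empty vector array (−0.76 for Plin2). Tfb2m (0.33) was also the single gene of these 5 groups past 1.2-fold on the Plin5 array. Of all genes, 1.52% were higher by that amount there. Mterf4 of the assembly group (0.26) lay at the limit without passing it. On that array the medians were 0.02 for assembly, 0.00 for synthetases and 0.06 for transcription and replication.

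Cytosolic ribosomal proteins, which make the imported proteins, lay on the other side of the control. Of 71 genes, 61 were above the empty vector array on the Plin2 array and 1 below, with a median of 0.14. Of all genes, 38.3% were above and 31.7% below. The differences were small: 12 of the 71 (16.9%) were higher by 1.2-fold and 1 (1.41%) by 1.5-fold. These shares were under the 19.4% and 8.84% of all genes. On the Plin5 array 4 of the 71 were above and 56 below, with a median of −0.06, and 2 (2.82%) were lower by 1.2-fold. Of all genes, 25.8% were above and 34.0% below, and 5.71% were lower by 1.2-fold. Macrophage markers moved the same way as the cytosolic genes on both arrays (medians 1.06 on the Plin2 array and −0.47 on the Plin5 array), and the part of other cell types in this was not tested.

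**Figure D4:**
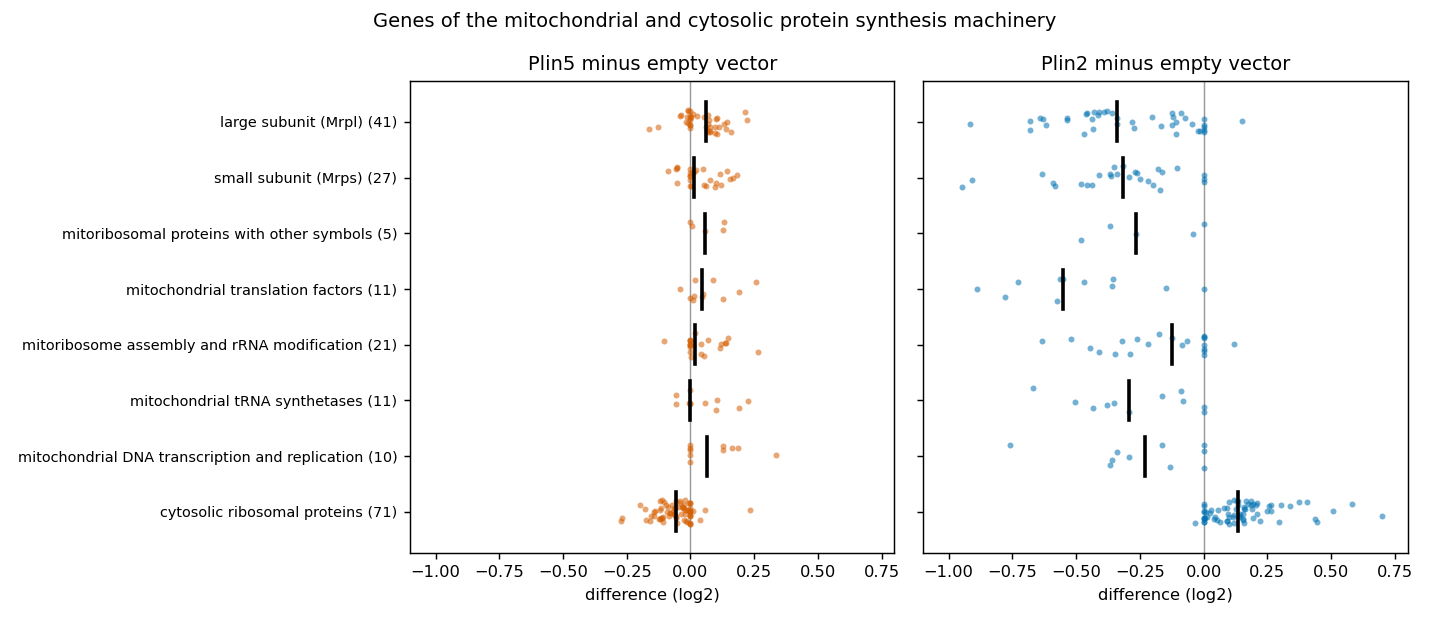
Difference (log2, x axis) of each gene from the empty vector array on the Plin5 array (left) and the Plin2 array (right), by group, with the number of genes in brackets; black bars are medians and points are spread vertically only for visibility. Translation factors here include Lrpprc and Slirp. On the Plin2 array the mitochondrial groups have medians from −0.55 to −0.12 and cytosolic ribosomal proteins 0.14.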

How the data were processed

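The deposited values were log2 expression levels made by the authors with RMA (robust multi-array average), per the submitters' processing notes, which name no version. Base 2 was assumed for the logarithm, as RMA returns it and the range fits. For the chip description and genome build, the sources used here give nothing. RMA forces the arrays to a common distribution, which hides changes in total RNA. Its summary left 6 members exactly equal on all 3 arrays, and 24.6% of all genes past the dim filter.

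No further normalization was applied. The platform annotation gave 1 symbol to 15310 of 29214 probe sets; the 323 with several symbols and the 13581 with none listed were left out. Mrpl20 shares its probe set with another gene and was not analysed here, like Mrpl9, Mrpl11, Mrpl24, Mrpl28, Mrpl33, Mrpl39, Mrpl58 and Mrps6. The probe set with the highest mean represented a gene. Genes with a mean under the 25th percentile were left out as dim.

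Differences were taken between pairs of arrays, counted at 1.2-fold and 1.5-fold, and set beside all genes past the filter. With 1 array per group there was no test and no p-value; the number of arrays limits the precision. All members were named by their place in the ribosome; of other groups, the extreme members. The members, lists and thresholds were chosen with earlier results of these data known. The counting was checked on shuffled array differences with known shifts added, which tests only its arithmetic. Computation used pandas 2.3.3 and numpy 2.4.6 under Python 3.11.15, the loess of statsmodels 0.14.6, scipy 1.17.1 for intervals and matplotlib 3.10.9 for plots.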

Additional observations from a re-analysis of the deposited data

How the results depend on the processing

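Alternatives covered the dim filter, centring, repeated quantile normalization, subtraction of a loess on level, the mean over a gene's probe sets, subunit assignment by structure, leaving out genes of equal value, the mean in place of the median, and the fold limit. The Plin2 minus empty vector median over all members lay between −0.38 and −0.30 in all of them. Centring each array on its median gene raised the Plin5 minus empty vector median to 0.075 over all members. It was 0.10 over large and 0.05 over small subunit genes, and 59 members lay above and 9 below the control. Centring shifts every gene alike: the median of all genes rose to 0.038, and the 13 members equal to the control moved above it. The members stayed 0.037 above all genes, as before centring. For Plin5 against Plin2 centring gave 23 members past 1.5-fold, all higher, where 1012 of 10879 genes were higher by that amount. Centring placed Mrpl52 at −0.19 in that comparison, under 1.2-fold. For Plin2 against empty vector 39 members passed 1.2-fold and 27 passed 1.3-fold, all lower, and 0 passed 2-fold. For Plin5 against Plin2 the counts were 37 (36 higher and 1 lower), 30 (all higher) and 3 (all higher). Of all genes, 19.4% were higher and 15.5% lower by 1.2-fold in the first comparison. In the second, 16.6% were higher and 22.0% lower. The shares of all genes past 1.3-fold and 2-fold were not counted, so the member counts there have no background. Of the differences between subunits 2 of 3 changed sign: by means they were 0.05 for Plin2 against empty vector and −0.04 for Plin5 against Plin2 (−0.02 by medians with equal genes left out), each on the other side of 0 from the medians reported, and 0.01 (0.04 by medians) for Plin5 against empty vector. After the data were seen, the translation factor list without Lrpprc and Slirp and the other assignment of Mrps18a and Mrps18b were added. No paired analysis was possible because each group has 1 array. No replicate could be left out for the same reason.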

Other observations

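Across the 68 members, the Plin2 minus empty vector difference was only weakly related to the mean level (Pearson r = −0.15, Spearman rho = −0.13, across genes of the same arrays, as a description). Genes past the dim filter with a mean level between 8.25 and 10.16, the middle range of the members, had a median Plin2 difference of 0.00 (3723 genes).

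Members were also split by motif letters in their promoter. The median Plin2 differences were −0.35 with and −0.26 without the ETS letters (18 and 36 genes), −0.34 and −0.26 for the YY1 letters (15 and 39), −0.34 and −0.27 for the estrogen-related receptor letters (3 and 51), and −0.10 and −0.31 for the NRF1 letters (6 and 48). These splits were not tested.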
